A study of Danio rerio with 19 samples.

Results

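clocka and arntl2 encode activators of the zebrafish circadian clock, and the H3K9me3 peaks at both genes were described across the 6 peak lists of the series. A peak belonged to a gene when it overlapped the gene's locus in the study's tables of diurnal transcripts or lay within 10 kb of it. This rule took 34 of 242100 listed peaks, 25 at clocka and 9 at arntl2, and did not use their scores. Peaks that overlapped between lists were joined into 12 sites, 9 at clocka and 3 at arntl2, of 90523 such regions in the genome.

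The series measured H3K9me3, histone H3 trimethylated on lysine 9, by ChIP-seq in brain of wild-type zebrafish of the SAT strain. The 6 groups were fish of 4 months (4 M), 12 M and 20 M, each taken at zeitgeber time 4 (ZT4) and ZT16, that is 4 h and 16 h after lights on, after 1 week of entrainment to 12 h of light and 12 h of dark. Each group had 3 libraries made with the H3K9me3 antibody, and 1 library was made with a GFP antibody. The authors called peaks on the 3 libraries of a group together and deposited 1 list per group. Each list is here called by the group's age and time (4 M ZT4). No value therefore has a spread between replicates, and no difference between groups could be tested from the lists. The paper itself compared H3K9me3 between times and ages with DiffBind, which was not repeated here. The paper states a general read depth for the ChIP-seq, but the lists hold no read counts, so the depth behind a peak is unknown.

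In the clock, CLOCK and BMAL proteins pair through their PAS domains, bind E-boxes and drive the period and cryptochrome genes, whose products then inhibit the pair. Zebrafish carry several copies of both activators. clocka is one of the Clock genes, and arntl2, which the RefSeq table of GRCz12tu lists under the symbol bmal2, encodes a partner of Clock. H3K9me3 is bound by HP1 proteins and marks heterochromatin. It covers repeats and silent genes, and it has been described at clock genes in the repressive phase of the cycle.

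The lists differed widely in length, so every count at the genes is read beside its list. They held 70317 peaks in 4 M ZT4, 55874 in 4 M ZT16, 29 in 12 M ZT4, 8755 in 12 M ZT16, 19177 in 20 M ZT4 and 87948 in 20 M ZT16. Absence from a list says only that no peak was called in that group, and the mark itself may still be present. The lists come from whole brain, so fewer cells with the mark and less of the mark per cell cannot be told apart, and the labelled tissue could not be checked against expression markers.

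Peaks at clocka were listed in 5 of the 6 lists. The locus, XLOC_033678 in the study's tables, lies on chromosome 20 of GRCz10 from 22168397 to 22281902 and is 113506 bp long. With its flanks it held 8 peaks in 4 M ZT4, 5 in 4 M ZT16, none in 12 M ZT4, 1 in 12 M ZT16, 3 in 20 M ZT4 and 8 in 20 M ZT16. The exact Poisson 95% intervals, which cover counting error only, were 3.45 to 15.8 for 8 peaks, 1.62 to 11.7 for 5 and 0.619 to 8.77 for 3. They overlap, but the lists share sites, so their counts are not independent and the overlap is no test of a difference. The longest lists held the most clocka peaks, and the ZT4 list at 20 M held fewer than the ZT16 list. This order rests on the full lists, since the 19177 highest-scoring peaks of each longer list, as many as the whole 20 M ZT4 list holds, included 2 at clocka in 4 M ZT4, 2 in 4 M ZT16 and 1 in 20 M ZT16, against the 3 in 20 M ZT4.

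Of the 9 clocka sites, 8 lay inside the locus and 1 lay past its upper end, and none was in the flank below it. Site 1 (22171720 to 22171775) lay 3.32 kb from the lower end. It was listed in 4 M ZT4, with a peak of 56 bp at score percentile 38.5 of that list, and in 20 M ZT16, with 53 bp at percentile 52.8. A score percentile is the mid-rank of a peak's score among all peaks of its own list, since scores were not compared between lists. Site 2 (22193371 to 22193469) was found in the 4 M ZT4 list alone, as a peak of 99 bp with a score of 13, percentile 0.853. In the genome, 2.94% of the regions were in that list alone.

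Site 3 (22199072 to 22199142) was listed in 4 M ZT4 at percentile 83.0, in 4 M ZT16 at percentile 28.4 and in 20 M ZT16 at percentile 64.5, with lengths of 71, 60 and 68 bp. It was missing in 20 M ZT4. Site 4 (22213264 to 22213314) was listed in 4 M ZT4, as 49 bp at percentile 16.3, and in 20 M ZT16, as 47 bp at percentile 33.3. Site 8 (22258024 to 22258071) was listed in 20 M ZT16 only, as 48 bp at percentile 30. Sites in 1 or 2 lists were thus at percentile 52.8 or lower wherever they were listed. In the genome, 13.4% of the regions were in 4 M ZT4 and 20 M ZT16 only, as sites 1 and 4 were. A further 21.8% were in 20 M ZT16 alone, as site 8 was.

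Sites 5, 6 and 7 lay close together near the middle of the locus, 51.2 to 54.9 kb from its lower end. Site 5 (22219619 to 22219699) was in both lists at 4 M and both at 20 M. Its percentile was 66.8 in 4 M ZT4, 44.5 in 4 M ZT16, 53.4 in 20 M ZT4 and 60.3 in 20 M ZT16, with lengths of 81, 77, 77 and 75 bp. Site 6 (22223026 to 22223095) was in the same 4 lists, at percentiles 63.1, 82.0, 73.8 and 74.9 in that order, with lengths of 67, 63, 50 and 67 bp. Of all regions of the genome, 11.5% were in these 4 lists only.

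Site 7 (22223313 to 22223378) followed site 6 after 217 bp. It was listed in 4 M ZT4 at percentile 60.9, in 4 M ZT16 at percentile 16.8 and in 20 M ZT16 at percentile 52.8, with 66, 53 and 59 bp, and was missing in 20 M ZT4. Of 87569 gaps between neighbouring regions of the merged lists, 1.79% were shorter than that of sites 6 and 7. Sites 6 and 7 count as 1 where peaks within 1 kb are merged.

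Site 9 was the most widely listed of the 12 sites and had the highest percentile at clocka in both 4 M and both 20 M lists. It lay 3012 bp past the upper end of the locus and was in all lists except 12 M ZT4. Its peak ran from 22284914 to 22285074 in 4 M ZT4 (161 bp, percentile 94.7) and from 22284919 to 22285062 in 4 M ZT16 (144 bp, percentile 89.3). At 12 M ZT16 it ran from 22284943 to 22285038 (96 bp) with a score of 11, percentile 6.90 of that list. It ran from 22284938 to 22285052 in 20 M ZT4 (115 bp, percentile 77.3) and from 22284914 to 22285073 in 20 M ZT16 (160 bp, percentile 96.8). In the genome, 9.07% of the regions were in the same set of 5 lists.

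**Figure D1:**
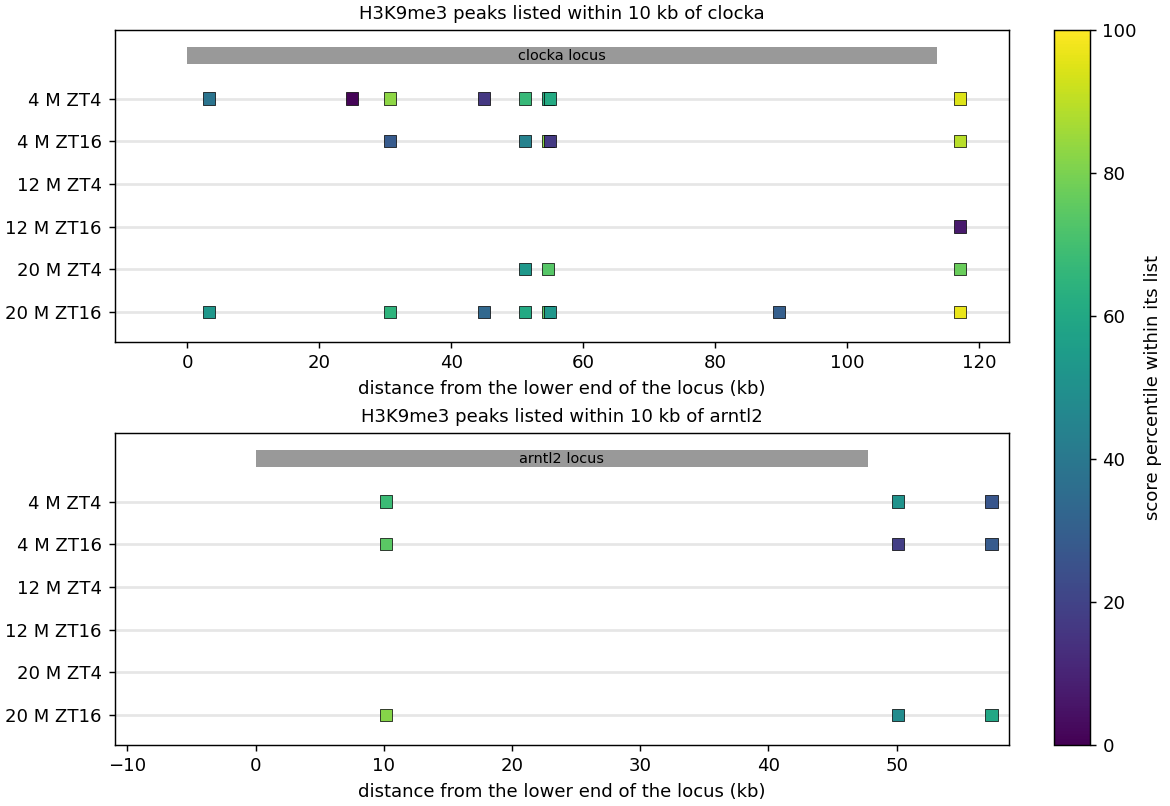
Map of the listed H3K9me3 peaks within 10 kb of clocka (upper panel) and arntl2 (lower panel). The x axis gives the distance from the lower end of the locus in kb, each row is 1 of the 6 lists, each square is a peak and its colour is the score percentile within its list. Sites 6 and 7 of clocka lie 217 bp apart and nearly coincide, site 9 of clocka recurs in 5 lists, and the 3 arntl2 sites recur in the same 3 lists.

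Peaks at arntl2 were listed in 3 of the 6 lists, and at the same 3 sites in each. The locus, XLOC_027007 in the study's tables, lies on chromosome 18 of GRCz10 from 15594350 to 15642128 and is 47779 bp long. It held 3 peaks in 4 M ZT4, 3 in 4 M ZT16 and 3 in 20 M ZT16, and none in 12 M ZT4, 12 M ZT16 or 20 M ZT4. The interval of 3 peaks (0.619 to 8.77) overlaps that of 0 peaks, whose upper bound is 3.69, which is no test of a difference between lists.

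The first arntl2 site (15604577 to 15604657) was the only one inside the locus, 10.2 kb from its lower end. It was at percentile 68.3 in 4 M ZT4, 74.3 in 4 M ZT16 and 81.9 in 20 M ZT16, with lengths of 81, 71 and 77 bp. The second (15644425 to 15644488) lay 2297 bp past the upper end, at percentiles 51.4, 18.2 and 48.3 and with lengths of 63, 49 and 62 bp in the same order. The third (15651739 to 15651796) lay 9611 bp past that end, at percentiles 26.9, 28.4 and 59.5 and with lengths of 54, 50 and 58 bp. The site inside arntl2 had the highest percentile of the 3 in each list. In the genome, 36231 of the 90523 regions were likewise in both 4 M lists and 20 M ZT16 and in no other, more than for any other combination of lists.

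The third arntl2 site lay close to the limit of 10 kb that chose the peaks. The nearest regions outside the limit lay 12.0 kb below clocka (22156206 to 22156364, in the same 5 lists as site 9), 33.9 kb past clocka, 18.7 kb below arntl2 and 15.8 kb past arntl2. Without the flanks, clocka kept 7, 4, 0, 0, 2 and 7 peaks from 4 M ZT4 to 20 M ZT16 in the order of age and time, and arntl2 kept 1 in each of its 3 lists.

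**Figure D2:**
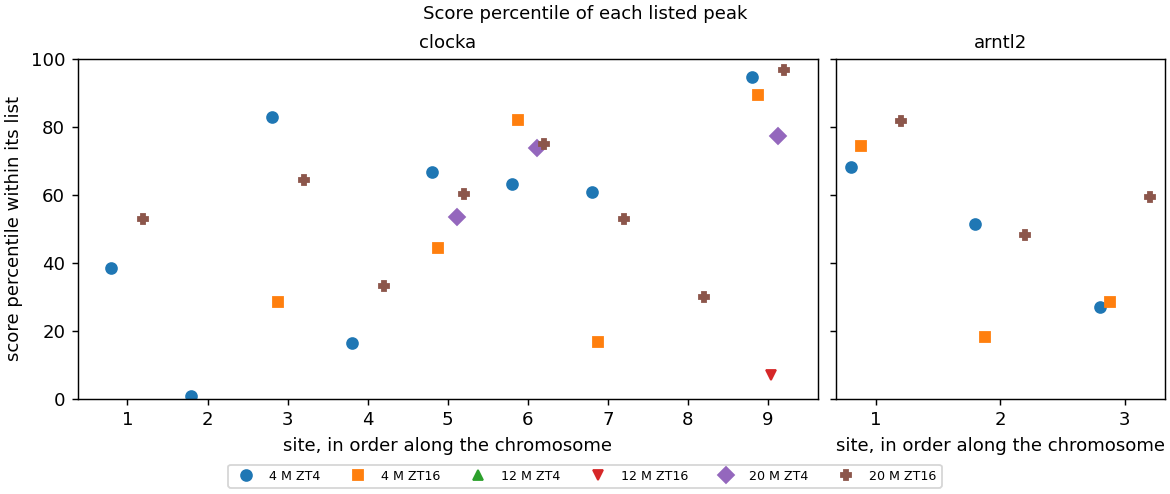
Score percentile (y axis, within each list) of every listed peak at the 9 clocka sites and the 3 arntl2 sites (x axis, in order along the chromosome), with 1 symbol per list. Site 9 of clocka is at percentile 77.3 or higher in the 4 M and 20 M lists and at 6.90 in 12 M ZT16.

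Peaks joined into a site overlap by construction, so their positions are close in the lists that held them. At clocka the midpoints of a site differed by at most 4.50 bp between lists, and at arntl2 by at most 3 bp. The ends varied more, and at site 9 of clocka the starts differed by 29 bp and the upper ends by 36 bp. Among 54301 regions with exactly 1 peak in each of 3 or more lists, the median range of midpoints was 3.50 bp and the middle 90% ran from 1 to 49.0 bp. The peaks were 47 to 161 bp long at clocka (median 67 bp) and 49 to 81 bp at arntl2 (median 62 bp). By list, the clocka median was 69 bp against 73 bp for all peaks in 4 M ZT4 and 63 against 70 in 4 M ZT16. It was 77 against 76 bp in 20 M ZT4 and 63 against 73 in 20 M ZT16. The arntl2 median was 63 bp in 4 M ZT4, 50 bp in 4 M ZT16 and 62 bp in 20 M ZT16. In 12 M ZT16 the only clocka peak had 96 bp, against a list median of 117 bp. The paper puts many peaks in and near protein-coding genes at about the size of 1 nucleosome, 150 to 200 bp. The only peaks in that range at clocka and arntl2 were the 2 at site 9 of 160 and 161 bp. By length they were at percentile 83.2 of 20 M ZT16 and 85.7 of 4 M ZT4, so most peaks of these lists were shorter too. The length is that of the called peak and need not be the extent of the mark.

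The longest gaps between neighbouring sites were picked out at each gene. No list had a peak for 34.6 kb between sites 7 and 8 of clocka. The same held for 26.8 kb between sites 8 and 9, which reached past the locus. Most of arntl2 lay in the stretch of 39.8 kb between its first and second sites. The median gap between neighbouring regions in the genome was 8.97 kb, and 88.3%, 82.2% and 91.1% of gaps were shorter than these 3. The other gaps at clocka ran from 0.217 kb (1.79% of gaps shorter) to 21.6 kb (76.0%). The other at arntl2 was 7.25 kb (44.4%). The 3 were chosen for their length, so they do not describe the spacing of either gene as a whole.

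The diurnal comparison asks whether the same sites were listed by day and by night. At 4 M, 5 of the 8 clocka peaks at ZT4 were also listed at ZT16 (sites 3, 5, 6, 7 and 9), and so were 3 of 3 at arntl2, beside 78.7% of all 4 M ZT4 peaks. No site was listed in 4 M ZT16 and missing at ZT4. Such regions were few in the genome too. Most were in 4 M ZT16 alone (0.285% of all regions) or in it and 20 M ZT16 (0.17%). At 20 M, 3 of the 8 clocka peaks at ZT16 were also listed at ZT4 (sites 5, 6 and 9), and 0 of 3 at arntl2, beside 21.6% of all 20 M ZT16 peaks. At 12 M, the 1 clocka peak at ZT16 was not listed at ZT4, where 0.308% of the ZT16 peaks were.

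The age comparison asks the same of young and old brain at 1 time of day. At ZT4, 3 of the 8 clocka peaks and 0 of the 3 arntl2 peaks at 4 M were also listed at 20 M, beside 26.7% of all 4 M ZT4 peaks. At ZT16, 5 of the 8 clocka peaks and 3 of the 3 arntl2 peaks at 20 M were also listed at 4 M, beside 63.4% of all 20 M ZT16 peaks. Between the longest lists, 7 of the 8 clocka peaks and 3 of the 3 arntl2 peaks in 4 M ZT4 were also listed in 20 M ZT16, beside 96.1% of all. Site 2 of clocka was the exception. These counts of 8 peaks or fewer were not tested against the shares of the whole lists.

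Whether a peak recurred in a shorter list moved with its score in the longer one over the genome. Of the 4 M ZT4 peaks, 2.77% in score quartile 1 (the lowest scores), 9.07% in quartile 2, 24.0% in quartile 3 and 71.6% in quartile 4 were also listed in 20 M ZT4. Among the clocka peaks in 4 M ZT4, site 9 of quartile 4 and sites 5 and 6 of quartile 3 were listed in 20 M ZT4. Site 3, also of quartile 4, was not, and neither was site 7 of quartile 3. The 3 arntl2 peaks in 4 M ZT4 belonged to quartiles 2 and 3. Of the 20 M ZT16 peaks at percentile 90 or higher, among them site 9, 67.6% were also listed in 12 M ZT16.

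The sites were also set beside all regions of the genome, list by list. Of the 9 clocka sites, 8 were in 4 M ZT4 (77.4% of all regions), 5 in 4 M ZT16 (61.5%), 0 in 12 M ZT4 (0.0298%), 1 in 12 M ZT16 (9.45%), 3 in 20 M ZT4 (21.0%) and 8 in 20 M ZT16 (96.5%). The 3 arntl2 sites were all in 4 M ZT4, 4 M ZT16 and 20 M ZT16 and in no other list. In proportion to list length, clocka held 1.14 of each 10000 peaks in 4 M ZT4 (0.491 to 2.24), 0.895 in 4 M ZT16 (0.291 to 2.09), 1.14 in 12 M ZT16 (0.0289 to 6.36), 1.56 in 20 M ZT4 (0.323 to 4.57) and 0.910 in 20 M ZT16 (0.393 to 1.79). These intervals overlap.

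The surroundings were taken as 500 kb on each side of a locus and its flanks. Around clocka they held 50 peaks in 4 M ZT4, 39 in 4 M ZT16, 2 in 12 M ZT16, 9 in 20 M ZT4 and 57 in 20 M ZT16. Density at clocka was 5.99 peaks per 100 kb in 4 M ZT4 against 5 around it, a ratio of 1.2 (exact conditional 95% interval 0.491 to 2.55). It was 3.75 against 3.90 in 4 M ZT16, a ratio of 0.960 (0.295 to 2.44), and 5.99 against 5.7 in 20 M ZT16, a ratio of 1.05 (0.433 to 2.21). At 20 M ZT4 it was 2.25 against 0.9, a ratio of 2.5 (0.435 to 10), and in 12 M ZT16, from 1 peak against 2, it was 0.749 against 0.2, a ratio of 3.75 (0.0635 to 71.9). Each of these intervals includes 1.

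Around arntl2 the surroundings held 41 peaks in 4 M ZT4, 34 in 4 M ZT16, 5 in 12 M ZT16, 7 in 20 M ZT4 and 54 in 20 M ZT16. Density at arntl2 was 4.43 peaks per 100 kb in each of its 3 lists. The ratio to the surroundings was 1.08 (0.214 to 3.38) in 4 M ZT4, 1.30 (0.256 to 4.14) in 4 M ZT16 and 0.820 (0.164 to 2.53) in 20 M ZT16. At 20 M ZT4, where arntl2 had no peak, 1 of the 7 surrounding peaks lay on the lower side and 6 on the upper side. No 12 M ZT4 peak lay within the surroundings of either gene.

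**Figure D3:**
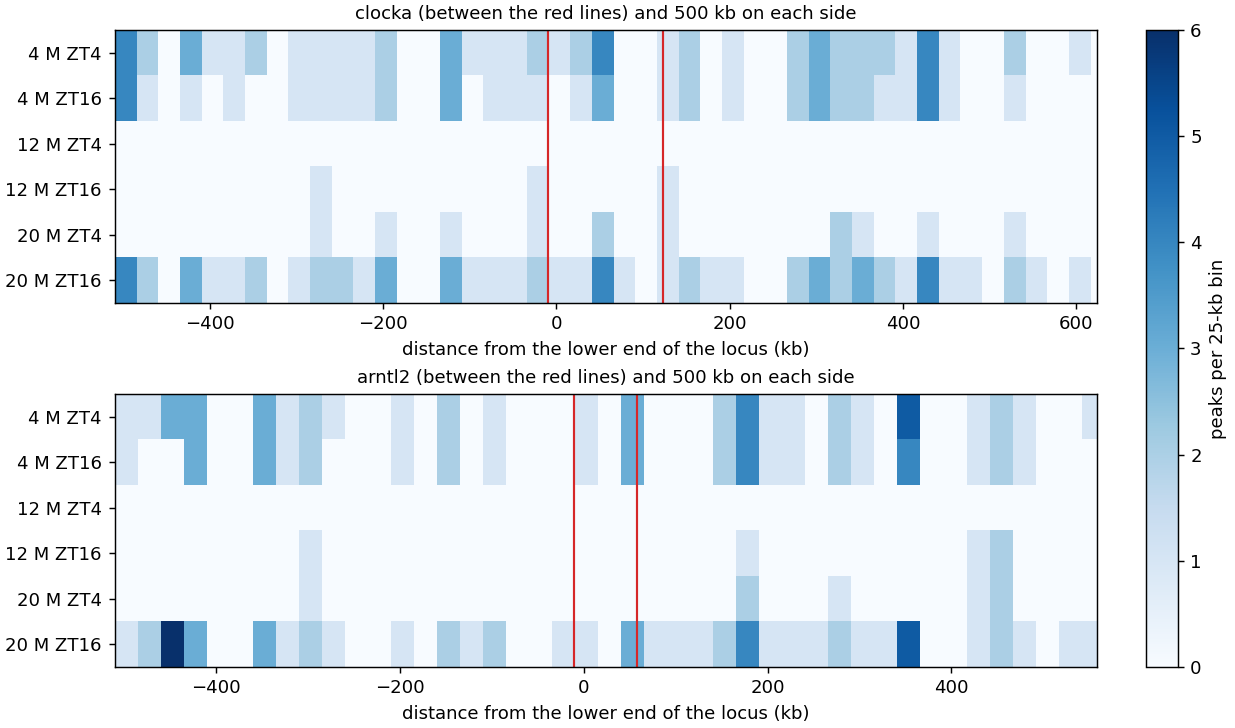
Number of listed peaks in bins of 25 kb (colour) over each gene and 500 kb on each side, by distance from the lower end of the locus in kb (x axis) and by list (rows). Red lines bound the locus with its flanks. The 20 M ZT16 row holds 57 peaks around clocka and 54 around arntl2, the 20 M ZT4 row 9 and 7, and the 12 M ZT4 row none.

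Both genes also lay in the body of the genome's distribution for stretches of their own length. The 25 numbered chromosomes were laid out in 10023 tiles of the length of the clocka window (133506 bp) and 19759 of the arntl2 window (67779 bp). Fewer peaks than at clocka were found in 63.4% of tiles in 4 M ZT4, 43.4% in 4 M ZT16, 58.6% in 12 M ZT16, 75.0% in 20 M ZT4 and 47.0% in 20 M ZT16. For arntl2, 38.6% of tiles held fewer peaks in 4 M ZT4, 51.8% in 4 M ZT16 and 27.8% in 20 M ZT16. At 20 M ZT4, 47.0% of tiles held no peak, as arntl2 did. The percentages describe these lists and are no test.

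A peak somewhere in a stretch of this length was the rule in both 4 M lists and 20 M ZT16, and less so in 20 M ZT4. Of the tiles of clocka length, 99.4% had a peak in 4 M ZT4, 98.2% in 4 M ZT16, 0.239% in 12 M ZT4, 41.4% in 12 M ZT16, 75.3% in 20 M ZT4 and 99.8% in 20 M ZT16. Of those of arntl2 length, the shares were 93.9%, 89.4%, 0.127%, 25.9%, 53.0% and 96.5% in the same order. That clocka had a peak in 5 lists and arntl2 in 3 is therefore read against these shares and not as a property of the genes.

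**Figure D4:**
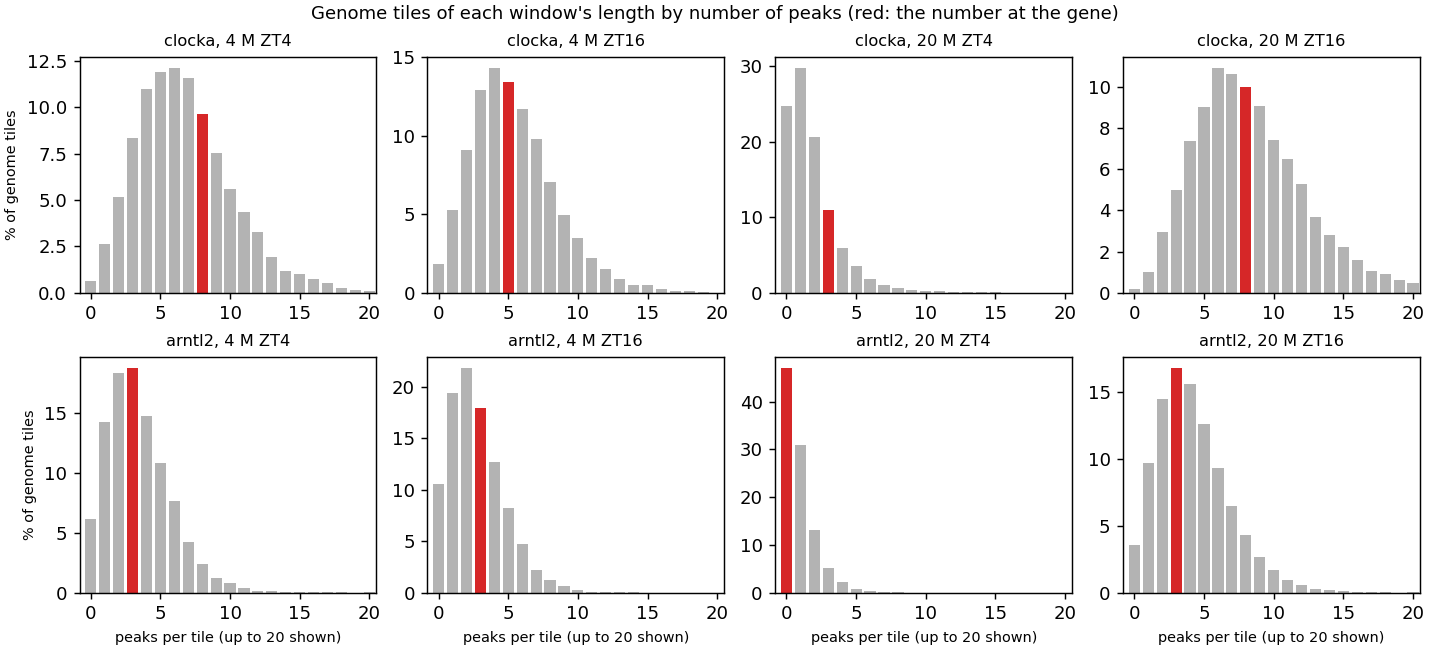
Share of genome tiles (y axis, %) by number of listed peaks per tile (x axis, tiles with up to 20 peaks shown), for tiles of the clocka window length (upper row) and of the arntl2 window length (lower row) in the 4 M and 20 M lists. The red bar is the number found at the gene, which lies near the middle of the distribution in the 4 M lists and 20 M ZT16. In 20 M ZT4, 75.0% of tiles held fewer than the 3 peaks of clocka, and arntl2 is among the tiles without a peak.

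**Figure D5:**
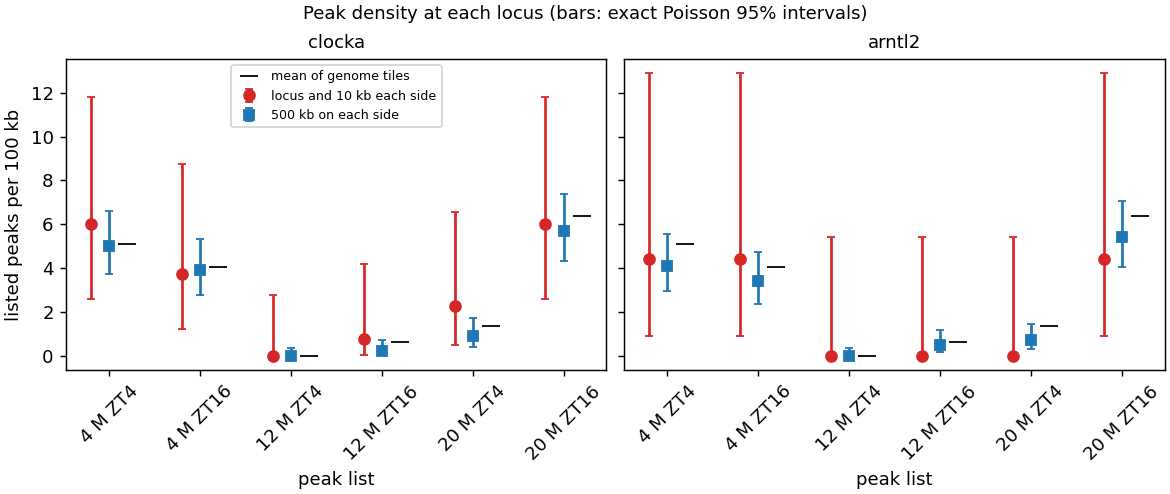
Listed peaks per 100 kb (y axis) at each locus with its flanks (circles), in the 500 kb on each side (squares) and as the mean of genome tiles (dashes), by list (x axis). Bars are exact Poisson 95% intervals of the counts. In each list the interval of the locus includes the value of its surroundings.

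Other clock genes placed by the study's tables were compared by the same rule. The list held 17 loci, namely 7 repressors (period, cryptochrome and bhlhe genes), 7 nuclear receptors and 3 bZIP factors. The nuclear receptors belong to the Rev-erb and ROR families, which feed back on Bmal genes in mammals. The list was chosen by name and need not hold every clock gene that the study's tables place. A peak within 10 kb was listed at 16 of the 17 in 4 M ZT4, 14 in 4 M ZT16, 0 in 12 M ZT4, 5 in 12 M ZT16, 8 in 20 M ZT4 and 16 in 20 M ZT16. Of all 358 annotated loci of the tables, 256 in those of diurnal genes and 102 only in those of genes whose expression differed with age, 81.6%, 75.4%, 0%, 19.3%, 39.7% and 85.8% had one in the same order. The Wilson 95% intervals of the clock list (73.0 to 99.0% in 4 M ZT4 and 26.2 to 69.0% in 20 M ZT4) include these shares. The intervals treat the loci as independent, although the windows of nfil3-2 and nfil3-6 overlap on chromosome 3. All annotated loci include the clock list itself. Clock loci were longer, with a median of 27.1 kb against 17.3 kb.

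Among these loci, the density in 20 M ZT16 was 5.99 peaks per 100 kb for clocka and 4.43 for arntl2, beside a median of 6.13 for the clock list and 5.47 for all annotated loci. nr1d1, a Rev-erb gene of 7601 bp, had no peak within 10 kb in any list. Of all 358 annotated loci, 307 had one in 20 M ZT16, the longest list, so loci without a peak were not rare. In the clock list, per1b, a period gene, came next with 2.25 peaks per 100 kb, from 1 peak. The highest densities of the list were 17.0 at nr1d2a, another Rev-erb gene, from 8 peaks, and 11.5 at nfil3-6, a bZIP gene. The latter rests on 3 peaks at a locus of 5993 bp. Over all annotated loci, the highest density in 20 M ZT16 was 24.0.

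bhlhe41, which encodes a repressor of E-box driven genes, lies 476 kb past arntl2 on chromosome 18 and so within its surroundings. It had 1 peak within 10 kb in 4 M ZT4 and 2 in 20 M ZT16 and none in the other lists, while arntl2 also had 3 in 4 M ZT16.

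Likeness was measured as the sum over the 6 lists of the absolute difference in peaks per 100 kb, among 163 annotated loci of at least 20 kb. The 3 loci most like clocka were paqr5b (2.17 peaks per 100 kb), nr1d4b (2.33) and ldb2a (2.74). paqr5b had 8, 7, 0, 1, 4 and 10 peaks from 4 M ZT4 to 20 M ZT16. The 3 most like arntl2 were slc1a6 (0.480), the locus named si:dkeyp-73d8.6,si:dkeyp-73d8.9 (0.510) and hmgcs1 (0.630), each with 2 peaks in both 4 M lists and in 20 M ZT16 and none elsewhere. As few as 2 or 3 peaks define these patterns.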

How the data were processed

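Reads (single-end, 50 bp) had been aligned to GRCz10 by the authors using Bowtie2, and MACS2 (version 2.2.1 in the submitters' processing notes) was run on the BAM files of each triplicate. The paper states a cutoff on the false discovery rate for these calls. The control of the calls and the scale of the score are not given in the sources used here. Whether the lowest-scoring peaks meet the cutoff could therefore not be checked. Each deposited peak carries a score, a whole number of 10 or more that the authors' peak caller wrote, used here within its own list only. Each of the 6 BED lists pools 3 libraries, so no test or SD was possible. The loci of clocka, arntl2 and the clock list came from the study's tables of diurnal transcripts, and the 358 annotated loci also from its tables of genes that changed with age. The members and lists were chosen with earlier results of these data known. Peaks were joined when they shared 1 bp or more, positions are counted from 1, and tiles ran from base 1 to the last peak of each chromosome. Peaks on unplaced scaffolds entered the list totals and regions but no tiles. Intervals were exact Poisson for counts, exact conditional for ratios and Wilson for shares, and cover counting error only, since each group has 1 list. Those of counts and ratios treat peaks as independent, which neighbouring peaks are not, so they may be too narrow.

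The named genes are clocka, arntl2, the clock loci without a peak in any list, the 2 with the most and the 2 with the fewest peaks per 100 kb in 20 M ZT16, any in the surroundings of either gene, and the 3 loci most like each. Alternatives were scores of at least 20 or 30, other flanks, merging within 1 kb, lists of equal size, 250 kb of surroundings, shifted tiles, no chromosome 4 and a reciprocal overlap of 50%. The tools were matplotlib 3.10.9, scipy 1.17.1, pandas 2.3.3 and numpy 2.4.6 under Python 3.11.15. On 5000 simulated intervals the overlap code recovered 1500 of 1500 overlaps that had been planted, as did bedtools 2.31.1. Sequences, strand, exons and transcription start sites were not analysed here.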

Additional observations from a re-analysis of the deposited data

Results flagged for a closer look

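The difference in clocka peaks between the times had opposite directions at 4 M and 20 M, as had that between the ages at ZT4 and ZT16. This was not tested because each group has 1 list. From ZT4 to ZT16 the log2 ratio was -0.68 at 4 M (8 to 5 peaks) and 1.42 at 20 M (3 to 8). From 4 M to 20 M it was -1.42 at ZT4 (8 to 3) and 0.68 at ZT16 (5 to 8). The whole lists gave -0.33 and 2.2 for the times and -1.87 and 0.65 for the ages, in the same directions. These directions rest on the full lists. Among the 19177 highest-scoring peaks of each longer list, set beside the whole 20 M ZT4 list, clocka went from 2 peaks at ZT4 to 2 at ZT16 in 4 M and from 3 to 1 in 20 M, where the direction turned. Between the ages it went from 2 in 4 M to 3 in 20 M at ZT4 and from 2 to 1 at ZT16, both turned as well. The cut makes the 4 M and 20 M lists equal in length by construction and removes most peaks of each longer list. The turns therefore do not show a reversal at clocka. They rest on 1 to 3 peaks and were not tested. Exact Poisson intervals are 0.0253 to 5.57 for 1 peak and 0.619 to 8.77 for 3. The values for arntl2 have no ratio in 20 M ZT4, where no peak was listed, and its 3 peaks in 4 M ZT4, 4 M ZT16 and 20 M ZT16 gave a log2 ratio of 0.00 between the times at 4 M and between the ages at ZT16.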

How the results depend on the processing

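The alternatives gave 169 values for 42 results. For counts a change of up to 1.5 times, and for ratios and shares a value inside the 95% interval, was taken as no move. By this, 141 values did not move and 28 did. The tally is no measure of stability, since part of it was fixed in advance. A count of 0 stays 0 under a stricter score, and its share of tiles with fewer peaks is always 0%. Some ratio intervals, such as 0.0635 to 71.9 for clocka in 12 M ZT16, are too wide for most changes to register. No paired analysis was possible because each list pools its 3 libraries, and for the same reason no library could be left out. The density ratio in 12 M ZT4 could not be computed, since no peak was listed there, and why a value moved was not tested, though a stricter score or a narrower flank removes peaks by construction.

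With lists of equal size, the 19177 peaks of each list with the highest scores, clocka had 2 peaks in 4 M ZT4, 2 in 4 M ZT16, 1 in 20 M ZT16 and the unchanged 3 in 20 M ZT4, and arntl2 had 0, 1 and 1 in its lists against 0 in 20 M ZT4. The larger numbers of clocka peaks outside 20 M ZT4 thus depend on the full lists. The single clocka peak in 12 M ZT16 was lost when scores of 20 or 30 were required (0 peaks), without a flank (0, and a density ratio of 0 to the surroundings) and with 3 kb (0), and became 2 with 25 kb. Of all peaks in this list, 66.8% score under 20 and 94.9% under 30, a loss that clocka shares with most of the list. Without a flank arntl2 had 1 peak in each of its 3 lists, and with 25 kb it had 6 in 20 M ZT16.

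Among peaks scoring 30 or more, clocka had more peaks than this share of tiles, namely 55.0% in 4 M ZT4, 45% in 4 M ZT16, 0% in 12 M ZT16, 85.1% in 20 M ZT4 and 55.5% in 20 M ZT16. For arntl2 it was 40.8% in 4 M ZT4, 52.9% in 4 M ZT16 and 33.1% in 20 M ZT16. Without chromosome 4 it was 42.3% for clocka in 4 M ZT16, and 50.9% in 4 M ZT16 and 27.1% in 20 M ZT16 for arntl2. At 12 M ZT16, 1 locus of the clock list kept a peak scoring 30 or more, against 5 with any peak. Of all 358 annotated loci, 5 of the 69 with a peak kept one.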
